A study of Mus musculus with 9 samples.

Results

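CD24negTomato+ cells were compared with CD24+Tomato+ cells, the 2 populations into which CD24 staining divides Neurog3-derived cells of the small intestinal epithelium. Their 6 libraries, 3 of each population, were picked by sample label out of 9 libraries of bulk RNA-Seq, and the other 3, of Tomatoneg cells, served as the common reference. All 9 came from mice of the genotype Neurog3Cre-FoxO1 f/f; Rosa26tdtomato (NFKO), aged 4 to 6 weeks, with no drug named in the labels. Cre expressed from Neurog3 both deletes FoxO1 and switches on Tomato in these mice, so both Tomato+ populations were targeted for FoxO1 deletion and Tomatoneg cells were not. No Tomato+ cells with intact FoxO1 are among these libraries. The cells were stained for CD24 and EpCAM before the sort.

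The epithelium renews from stem cells in the crypt, whose daughters become absorptive enterocytes or secretory cells. Among the secretory cells, enteroendocrine cells (EEC) release peptide hormones and serotonin, goblet cells release mucus, Paneth cells release lysozyme and α-defensins at the crypt base, and tuft cells sense the contents of the lumen. Neurog3 is switched on for a short time in endocrine progenitors, and a Tomato label keeps a record of it in all their descendants. CD24 is a surface glycoprotein found on Paneth cells and on many EEC and crypt cells.

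The values were normalized counts in 2 tables that had been scaled separately, one for each Tomato+ population, with the same Tomatoneg libraries in both. Each Tomato+ library was therefore set against the same-numbered Tomatoneg library of its own table, as log2(normalized count + 1) of the first minus that of the second, and this is called a bridged value below. The log2 difference is the bridged value of CD24negTomato+ minus that of CD24+Tomato+ cells over the 3 same-numbered pairs (n = 3), so it is positive where CD24negTomato+ cells had more. It was tested with limma with the replicate number as a block, and P was adjusted over all 13239 genes tested, with 0.05 as the threshold. Sequencing depth was estimated from the low values at 27723742 to 39240059 reads in Tomato+ libraries and 19158348 to 24373149 in Tomatoneg libraries. In CD24negTomato+ libraries 3 reads were worth 2.22 to 2.83 normalized counts, which covers counting error only. The shared Tomatoneg libraries had values 1.02 to 1.08 times as high in one table as in the other, by median ratio over genes. Mitochondrially encoded transcripts took 10.5, 11.3 and 15.8% of CD24negTomato+ libraries 1, 2 and 3, and 6.9, 3.44 and 5.59% of CD24+Tomato+ libraries. The labels call the replicates biological, but the sources used here do not say which mice each library came from, so P values cannot be read as a spread between mice. They measure the spread of the log2 difference over these 3 pairs, after the block removes variation that a pair has in common. Replicate 3 stood apart in several transcripts: MHC class II genes took 0.0427, 0.0221 and 0.189% of CD24negTomato+ and 0.036, 0.0327 and 0.152% of CD24+Tomato+ libraries 1, 2 and 3, and among CD24negTomato+ libraries insulin, Ppy and Iapp were highest in replicate 3.

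The populations differed widely. Of 35013 gene symbols, 13239 had a mean of at least 10 normalized counts in both tables, and in CD24negTomato+ cells 3181 of these were higher (24.0%) and 3437 were lower (26.0%) past the threshold. Of these 6618 genes, 6584 had the same sign in all 3 pairs. Larger differences were more often lower than higher: 1954 genes were lower and 1477 higher by a log2 difference of at least 1, while 90 were lower and 5 higher by at least 4. Over all genes tested the median log2 difference was -0.05, the 5th and 95th percentiles were -1.95 and 1.65, and the median standard error (SE) was 0.19. The 3 bridged values of one population did not overlap with the 3 of the other for 4145 genes (31.3%). With all libraries of a table scaled to equal totals, the median moved to -0.25, and 1889 genes were higher and 3742 lower, so that 33.5% of calls were higher in place of 48.1%. Without the block, 1046 genes were higher and 660 lower. The block removes variation that a same-numbered pair has in common, both of its shared Tomatoneg library and of the Tomato+ libraries themselves.

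**Figure D1:**
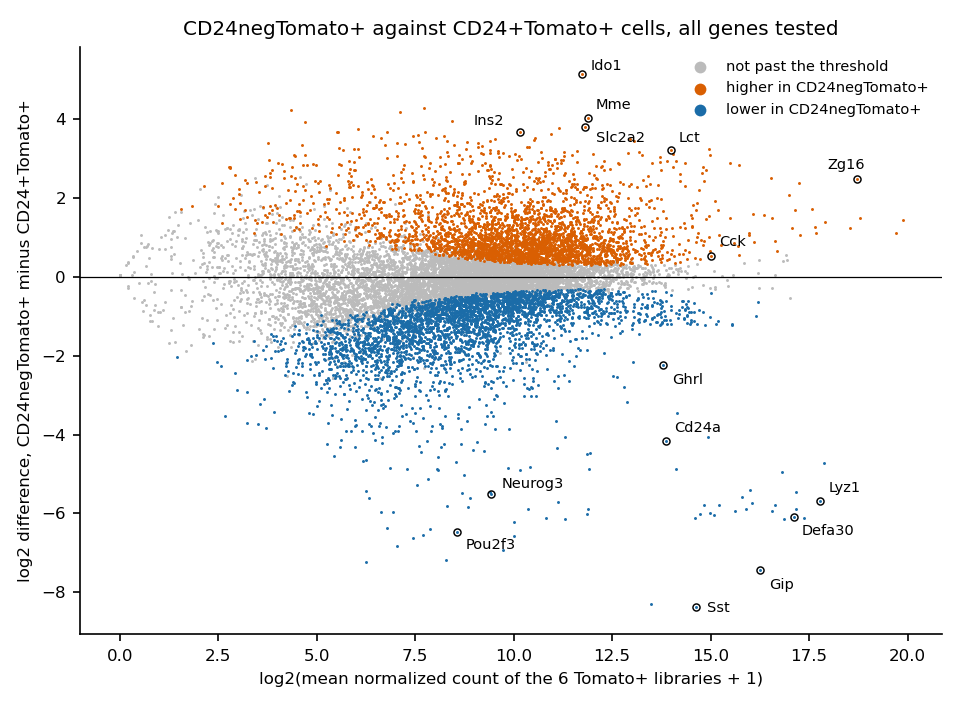
Log2 difference between CD24negTomato+ and CD24+Tomato+ cells (y axis) against the log2 of the mean normalized count of the 6 Tomato+ libraries plus 1 (x axis), 1 point per gene tested (13239 genes). Orange points were higher and blue points lower in CD24negTomato+ cells at an adjusted P under 0.05 from limma, and the lowest points include Sst at -8.39 and Gip at -7.44.

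The sort and the genotype were checked first. Cd24a, which encodes CD24, had 993, 2054 and 1689 normalized counts in replicates 1, 2 and 3 of CD24negTomato+ cells and 25857, 30949 and 28118 in CD24+Tomato+ libraries, a log2 difference of -4.15 (SE 0.15) that follows from the sort. Epcam, the epithelial surface marker, had 28799, 28864 and 27920.3 normalized counts in CD24negTomato+ and 22504, 20987 and 20915 in CD24+Tomato+ libraries, so both populations carried it (log2 difference 0.48, SE 0.13, limma adjusted P = 0.0152; 0.48 and not past the threshold without replicate 3). Neurog3 (chromosome 10, 62133090 to 62134763, plus strand of GRCm38), the progenitor factor that drove Cre, was far lower in CD24negTomato+ cells. It had 14.6, 19.6 and 41.2 normalized counts there and 1319, 1345 and 1364 in CD24+Tomato+ libraries, with no overlap and a log2 difference of -5.51 (SE 0.31, limma adjusted P = 3.66e-06). Foxo1 had 467, 274 and 371 normalized counts in CD24negTomato+, 319, 193 and 201 in CD24+Tomato+ and 695, 518 and 424 in Tomatoneg libraries. Its log2 difference was 0.71 (SE 0.18, limma adjusted P = 0.0101), but 0.59 and not past the threshold without replicate 3. The gene-level count covers exons inside and outside the floxed part of the gene, so it does not measure the deletion.

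Hormone genes divided the populations unequally. Of 13 EEC hormone genes, all tested, 8 were lower and 2 higher in CD24negTomato+ cells, where 26.0% and 24.0% of all genes tested were, with a median log2 difference of -0.98 beside -0.05 over all genes tested. Somatostatin (Sst), the inhibitory hormone of D cells, showed the largest fall of any gene named here, from 59241, 62671 and 30735 normalized counts in CD24+Tomato+ libraries to 209, 226 and 53.4 in CD24negTomato+ libraries. This was a log2 difference of -8.39 (SE 0.20, limma adjusted P = 1.45e-07), or 335-fold lower. Gip, the incretin of K cells, had 458, 2109 and 619 normalized counts in CD24negTomato+ against 164148, 174626 and 129277 in CD24+Tomato+ libraries, a log2 difference of -7.44 (SE 0.31, limma adjusted P = 8.79e-07). For both genes the CD24negTomato+ value was also below that of the same-numbered Tomatoneg library in all 3 replicates. In bulk samples such as these, fewer cells of a type and less RNA per cell cannot be told apart.

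The promoter of Sst is shown because this gene had the largest difference of those named. The 250 bases before its RefSeq transcript start are given 5′ to 3′ on the strand of the gene (GRCm38.p6, chr16:23890845-23891094, minus strand), with the cAMP response element TGACGTCA in capitals, which begins 48 bases before the start.
Sst: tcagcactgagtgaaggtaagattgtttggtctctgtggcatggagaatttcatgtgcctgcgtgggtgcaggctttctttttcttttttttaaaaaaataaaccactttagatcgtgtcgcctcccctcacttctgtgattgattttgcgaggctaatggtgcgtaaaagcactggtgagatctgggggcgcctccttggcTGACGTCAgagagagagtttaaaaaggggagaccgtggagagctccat
Searched on both strands in 1 such window per gene, TGACGTCA, which is its own reverse complement, was found in 1 of 13 hormone genes, this one, and in 1.6% of 27025 RefSeq genes. A match describes the letters only and shows no binding. None of the 4 motifs searched here and below (TGACGTCA, ATCAAAG, ATGCAAAT and GTTAAT) contains another.

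The other hormones spread around a smaller change. Ghrelin (Ghrl) had 4696, 6107 and 3711 normalized counts in CD24negTomato+ and 18320, 30053 and 22835 in CD24+Tomato+ libraries, without overlap (log2 difference -2.23, SE 0.15, limma adjusted P = 9.73e-06). Gcg, which encodes GLP-1, had 7252, 16867 and 15869.7 and 25217, 32483 and 31102 normalized counts in the same order, a log2 difference of -1.16 (SE 0.17, limma adjusted P = 0.000555). Secretin (Sct), tachykinin (Tac1) and peptide YY (Pyy) were lower, with log2 differences of -0.88, -0.90 and -0.98. The calls of Tac1 and Pyy rested on replicate 1, without which the log2 differences were -0.49 and -0.47, and Pyy did not pass without replicate 2 (-1.05) either. Cholecystokinin (Cck) went the other way in all 3 pairs, with 36574, 46473 and 31803 normalized counts in CD24negTomato+ and 27546, 31943 and 24130.1 in CD24+Tomato+ libraries (log2 difference 0.53, SE 0.11, limma adjusted P = 0.00431). With equal library totals its log2 difference was 0.32 and did not pass. Neurotensin (Nts) had 23163, 71481 and 25302 normalized counts in CD24negTomato+ and 55348, 46492 and 17652 in CD24+Tomato+ libraries, ranges that overlapped, and did not pass (log2 difference 0.03; 0.62 and past the threshold without replicate 1).

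Pancreatic polypeptide (Ppy) had 176, 435 and 1827 normalized counts in CD24negTomato+ and 145, 71.5 and 314 in CD24+Tomato+ libraries and was listed at 0 in all Tomatoneg libraries. Its log2 difference of 1.80 (SE 0.58, limma adjusted P = 0.0298) fell to 1.40 without replicate 2 and 1.43 without replicate 3, neither past the threshold. Amylin (Iapp), the β cell peptide, had 53.3, 108 and 657 normalized counts in CD24negTomato+ and 1517, 1128 and 636 in CD24+Tomato+ libraries. CD24negTomato+ replicate 3 stood at the CD24+Tomato+ level, and the log2 difference of -2.64 (SE 0.73, limma adjusted P = 0.0151) was -4.01 without that replicate and did not pass without replicate 1 (-1.61) or replicate 2 (-2.29). Insl5 and Ucn3 did not pass (log2 differences 0.55 and -1.0). Bridged values did not overlap for 4 of the 13 genes (31.3% of all genes tested), and without the block 3 were lower and 0 higher. Summed over the 13 genes, hormone transcripts took 0.326% to 0.62% of CD24negTomato+ libraries, 1% to 1.8% of CD24+Tomato+ libraries and 0.0199% to 0.0474% of Tomatoneg libraries.

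**Figure D2:**
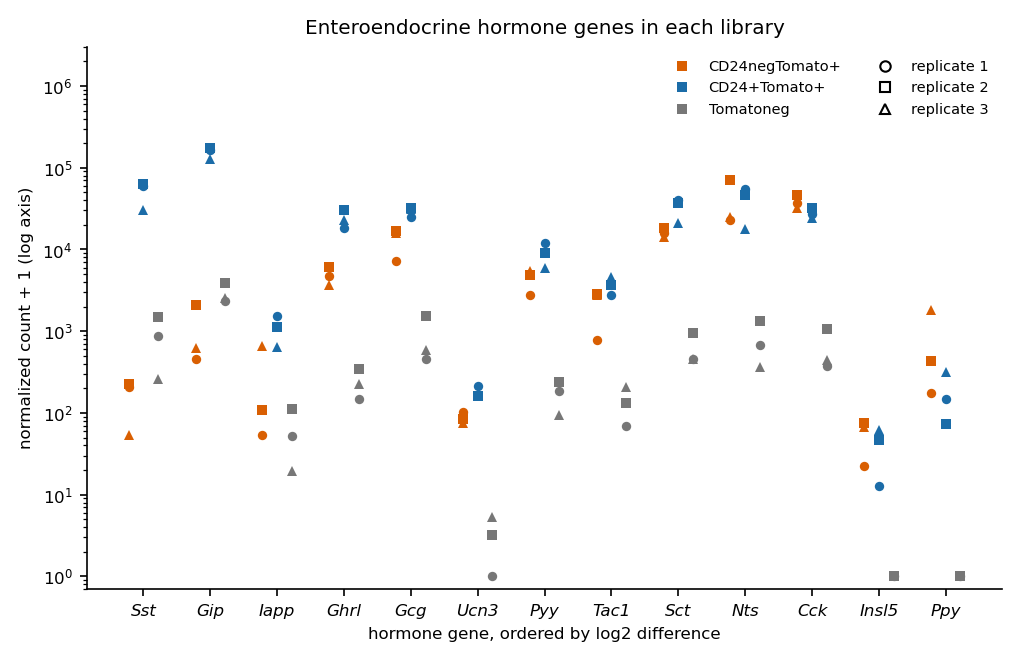
Normalized count plus 1 (log axis) of 13 EEC hormone genes in each library, in orange for CD24negTomato+, blue for CD24+Tomato+ and grey for Tomatoneg libraries, with a circle, square or triangle for replicates 1, 2 and 3. Genes are ordered from the largest fall (Sst, Gip) to the largest rise (Ppy), and for Sst and Gip the orange points lie below the grey ones of the same shape. Points that coincide, such as the 3 Tomatoneg values of Ppy at 0, overlie each other.

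Endocrine transcription factors were lower in CD24negTomato+ cells almost throughout. Of 19 on the list, 18 were tested, and 16 were lower and 0 higher, beside 26.0% and 24.0% of all genes tested. Their median log2 difference was -2.10. After Neurog3, the largest falls were in Rfx6, Isl1, Pax4 and Nkx2-2, which act in endocrine differentiation in gut and islet. Rfx6 had 71.1, 243 and 30.8 normalized counts in CD24negTomato+ and 2029, 1453 and 613 in CD24+Tomato+ libraries, far apart within every pair (log2 difference -3.86, SE 0.46, limma adjusted P = 0.000191), but its bridged values overlapped because Tomatoneg replicate 1 was at 0. Isl1 had 109.8, 168 and 65.5 and 1439, 1385 and 615 normalized counts, and its bridged values did not overlap (log2 difference -3.25, SE 0.28). Pax4 and Nkx2-2 had log2 differences of -2.84 (SE 0.39) and -2.72 (SE 0.36). Insm1, St18, Pax6 and Sox4 lay between -2.33 and -2.10, whereas Neurod1, which acts after Neurog3, had -0.84 (limma adjusted P = 0.0406; -0.41 and not past the threshold without replicate 1). The exceptions were Pdx1 and Etv1, with log2 differences of 0.33 and 0.06 that did not pass. Hhex, below the filter in the CD24neg table, had 4.94, 0.777 and 0 normalized counts in CD24negTomato+ and 165, 143 and 92.7 in CD24+Tomato+ libraries. Without the block, 3 of the 18 were lower.

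The secretory apparatus of endocrine cells was lower as well. Of 13 genes for granins and prohormone processing, 11 were lower and 1 higher, beside 26.0% and 24.0% of all genes tested. Their median log2 difference was -1.17, and 3 were lower without the block. Chromogranin A (Chga), a core protein of the secretory granule, had 9808, 19769 and 15349 normalized counts in CD24negTomato+ and 48208, 35419 and 24708 in CD24+Tomato+ libraries (log2 difference -1.20, SE 0.26, limma adjusted P = 0.00481; -0.71 without replicate 1). Chgb gave -1.23 (SE 0.25; -0.77 without replicate 1). Secretagogin (Scgn), a calcium sensor, was lower with a log2 difference of -2.82 (SE 0.20), and carboxypeptidase E (Cpe) and the amidating enzyme Pam with -1.04 and -1.18. The prohormone convertase Pcsk1 had -0.78, and -0.41 without replicate 1, which did not pass. The granin-like peptides Pcsk1n (-1.55) and Vgf (-1.24) passed, but not without replicate 1 (-1.14 and -0.94) or replicate 2 (-1.47 and -1.49). Secretogranin 2 (Scg2) was the exception, with 5395, 9884 and 3152 normalized counts in CD24negTomato+ and 4886, 4381 and 1642 in CD24+Tomato+ libraries, higher in all 3 pairs (log2 difference 0.82, SE 0.20, limma adjusted P = 0.00867; 0.63 and not past the threshold without replicate 2). It did not pass with equal totals (0.62) or after quantile normalization (0.58) either.

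Most exocytosis genes and ion channels were lower. Of 14 exocytosis genes, 9 were lower and 2 higher, beside 26.0% and 24.0% of all genes tested, with a median log2 difference of -0.84. Complexin 2 (Cplx2), which clamps vesicle fusion, the t-SNARE Stx1a and the Rab effector Rph3al had log2 differences of -1.97 (SE 0.22), -2.02 (SE 0.36) and -1.80 (SE 0.16). Rab27a, which tethers vesicles, was higher (0.59) but did not pass without replicate 1 (0.61) or replicate 2 (0.39). All 9 of the ion channel genes that passed, of 11 tested among 13, were lower, where 26.0% of all genes tested were. The median over the 11 was -1.47. The KATP channel subunits Kcnj11 and Abcc8, which couple glucose metabolism to membrane potential in β cells, had log2 differences of -2.52 (SE 0.40) and -2.30 (SE 0.25). Abcc8 had 261, 321 and 304 normalized counts in CD24negTomato+ and 2125, 1527 and 1219.7 in CD24+Tomato+ libraries, without overlap. Among 9 nutrient receptors tested of 10, the short-chain fatty acid receptor Ffar3 (-3.0), Gpr119 (-1.96) and the bile acid receptor Gpbar1 (-1.80) were lower and Lpar5 (1.04) was higher, and Gpbar1 did not pass without replicate 1 (-1.28). These were 3 lower and 1 higher, beside 26.0% and 24.0% of all genes tested, and 5 did not pass. Their median was -0.51, and 0.01 with a filter at a mean of 50. Without the block, 2 of the exocytosis genes, none of the ion channels and none of the receptors passed.

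Serotonin genes, the mark of enterochromaffin cells, were lower by moderate amounts. Of 8 genes 6 were lower and 0 higher, beside 26.0% and 24.0% of all genes tested. Their median log2 difference was -0.92 (2 lower without the block). Tph1, the rate-limiting enzyme of serotonin synthesis, had 1671, 2969.7 and 1106 normalized counts in CD24negTomato+ and 7221, 4953 and 2662 in CD24+Tomato+ libraries (log2 difference -1.36, SE 0.23, limma adjusted P = 0.00123). Replicate 2 of CD24negTomato+ lay above replicate 3 of CD24+Tomato+, so the ranges overlapped, while every pair had the same order. The transcription factor Fev had 209 to 369 normalized counts in CD24negTomato+ and 1633 to 1817 in CD24+Tomato+ libraries, without overlap (log2 difference -2.61, SE 0.23). Lmx1a, a factor of the same lineage, had a log2 difference of -1.65 (SE 0.49), which did not pass without replicate 1 (-0.92) or replicate 2 (-1.89). Gch1, which starts synthesis of the cofactor, and Ddc, which makes serotonin in the last step, had -1.23 and -0.60.

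Paneth genes were lower throughout. All 12 members of the list were tested and all 12 were lower in CD24negTomato+ cells, where 26.0% of all genes tested were. Their median log2 difference was -4.92. Bridged values did not overlap for any of the 12, beside 31.3% of all genes tested. The same 12 passed without the block, where 660 of all 13239 genes tested were lower. Lysozyme (Lyz1; chromosome 10, 117287797 to 117292868, minus strand of GRCm38) had 3373, 10430.4 and 10432 normalized counts in CD24negTomato+ and 172202, 644306 and 515378 in CD24+Tomato+ libraries, a log2 difference of -5.68 (SE 0.16, limma adjusted P = 1.45e-07), or 51.2-fold lower. The α-defensin Defa30 had 1116, 4080.3 and 5302 and 61175, 439054 and 333544 normalized counts in the same order (log2 difference -6.08, SE 0.20, limma adjusted P = 2.25e-07). In both genes, replicate 1 was the lowest of its population on each side. Intelectin (Itln1), the ribonuclease Ang4 and the protease Mmp7, which activates α-defensins, had log2 differences of -4.96, -4.88 and -3.44. Of 25 Defa genes tested, a family taken by symbol after values were seen, 25 were lower, beside 26.0% of all genes tested, with a median of -5.93. Defa genes are close copies of each other, so the division of reads among them is uncertain. Defa42 went from 7575, 52811 and 8095 normalized counts in CD24+Tomato+ libraries to 357, 0 and 250.2 in CD24negTomato+ libraries, with a log2 difference of -8.31 (SE 1.76) that was -4.65 without replicate 2. Paneth list genes took 2.63, 10.4 and 8.2% of CD24+Tomato+ libraries 1, 2 and 3 and 0.0855% to 0.214% of CD24negTomato+ libraries.

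Promoters of Defa30 and Defa28 (log2 difference -7.17, SE 0.46) are shown because the family moved together. They are the 250 bases before the RefSeq start, 5′ to 3′ on the strand of the gene (GRCm38.p6; Defa30 at chr8:21134400-21134649, plus strand; Defa28 at chr8:21582777-21583026, plus strand), with the TCF/LEF core ATCAAAG, a Wnt response motif, in capitals. Both windows were picked after the motif search.
Defa30: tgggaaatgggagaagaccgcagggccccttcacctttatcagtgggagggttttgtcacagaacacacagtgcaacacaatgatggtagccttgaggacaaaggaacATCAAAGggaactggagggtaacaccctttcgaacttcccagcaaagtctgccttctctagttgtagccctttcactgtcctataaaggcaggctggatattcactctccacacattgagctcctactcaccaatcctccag
Defa28: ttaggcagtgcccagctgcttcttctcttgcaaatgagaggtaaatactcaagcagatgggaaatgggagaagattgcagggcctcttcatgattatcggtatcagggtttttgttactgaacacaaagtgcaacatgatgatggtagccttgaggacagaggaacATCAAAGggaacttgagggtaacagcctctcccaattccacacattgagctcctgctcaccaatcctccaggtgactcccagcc
Searched on both strands, ATCAAAG was found in 13 of 16 Defa genes with a RefSeq window and in 3.26% of all 27025 genes. These windows are related in sequence and are not independent. Of the Paneth list itself, 3 of 9 genes with a window held it, all of them Defa genes. The same core was in none of 19 enterocyte genes with a window and in 1 of 23 tuft genes, Dclk1.

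Tuft genes fell in the same way. Of 27 on the list, 22 were tested and 22 were lower, beside 26.0% of all genes tested, with a median log2 difference of -4.92. Without the block 17 passed, beside 660 lower of all 13239 genes tested. Bridged values did not overlap for 19 of the 22, beside 31.3% of all genes tested. Pou2f3 (chromosome 9, 43123939 to 43210369, minus strand of GRCm38), the transcription factor that specifies tuft cells, had 5.39, 10.7 and 5.23 normalized counts in CD24negTomato+ and 716, 812 and 711 in CD24+Tomato+ libraries (log2 difference -6.48, SE 0.29, limma adjusted P = 1.52e-06). The taste-signalling channel Trpm5 had 115, 65.4 and 56.8 and 5102, 3786 and 4233 normalized counts, and the classical marker Dclk1 had 62.4, 71.9 and 78.6 and 3366, 2330.0 and 2322. Their log2 differences were -5.71 (SE 0.19) and -4.82 (SE 0.21). Gng13, a G protein subunit of the same cascade, had 0, 0.478 and 0 normalized counts in CD24negTomato+ libraries, under 3 reads in each, and 115, 165 and 168 in CD24+Tomato+ libraries, which is at least 40.5-fold lower against a floor of 3 reads per library. Alox5 and Alox5ap, of leukotriene synthesis, had log2 differences of -5.85 and -5.61, the adaptor Sh2d6 -6.57 and the transcription factor Spib -6.21. The 5 members under the filter were Gfi1b, Il25, Chat, Gnat3 and Sucnr1, and all had more in each CD24+Tomato+ library than in any CD24negTomato+ library, though on separately scaled tables. The cytokine Il25 was at 0 in all CD24negTomato+ libraries, which allows up to 3 reads in each, and had 26.6, 35.1 and 15.4 normalized counts in CD24+Tomato+ libraries. Summed over the list, tuft genes took 0.00434% to 0.00504% of CD24negTomato+, 0.0155% to 0.0221% of Tomatoneg and 0.0953% to 0.151% of CD24+Tomato+ libraries. The octamer ATGCAAAT, a motif of POU factors such as Pou2f3, was in 2 of 23 tuft promoter windows (Sucnr1 and Hpgds) and in 1.62% of all windows.

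Among the 12 largest falls by the rule used to name genes, the 5 that are on no list or family above were Nnat, Ly6g6f, Fzd9, Ccnj and Nrgn. Neuronatin (Nnat), a membrane protein of neuroendocrine cells, had 1.83, 28.1 and 26.1 normalized counts in CD24negTomato+ and 1891, 1668 and 1509 in CD24+Tomato+ libraries (log2 difference -6.93, SE 0.63). The cyclin Ccnj had 51.8, 0 and 0 and 619.5, 302 and 272 (log2 difference -6.56, SE 0.81), and neurogranin (Nrgn), which binds calmodulin, had 7.17, 3.80 and 4.22 and 548, 416 and 413 (log2 difference -6.40, SE 0.31). The Wnt receptor Fzd9 and the surface protein Ly6g6f had log2 differences of -6.64 (SE 0.53) and -6.83 (SE 0.52). All 5 had bridged values that did not overlap.

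Of 14 goblet genes, all tested, 7 were higher and 4 lower in CD24negTomato+ cells, where 24.0% and 26.0% of all genes tested were, with a median log2 difference of 0.49 (2 and 2 without the block). The higher genes were mostly secreted products. The lectin Zg16 had 849360, 837929 and 472290 normalized counts in CD24negTomato+ and 204634, 105445 and 104682 in CD24+Tomato+ libraries (log2 difference 2.48, SE 0.22, limma adjusted P = 4.29e-05). Clca1, a secreted protease of the mucus, had 285955, 319731 and 159733 and 85423, 37076 and 38022 normalized counts (log2 difference 2.38, SE 0.23, limma adjusted P = 6.77e-05). For both genes, every CD24negTomato+ library lay above every CD24+Tomato+ library and bridged values did not overlap. The mucus proteins Fcgbp and Tff3 had log2 differences of 1.11 (SE 0.26; 0.26 and not past the threshold after quantile normalization) and 1.06 (SE 0.17). Mucin 2 (Muc2), the main gel-forming mucin, had 8102, 9976 and 6399 normalized counts in CD24negTomato+ and 6659.7, 3929 and 3566 in CD24+Tomato+ libraries (log2 difference 0.89, SE 0.18, limma adjusted P = 0.00302), and did not pass with equal totals (0.69). The lower genes included the transcription factors of the lineage, Spdef (-0.80), Creb3l1 (-1.18) and Foxa3 (-0.58), the last not past the threshold without replicate 2 (-0.61) or replicate 3 (-0.32). Spink4, an inhibitor made by goblet and Paneth cells, had 31969, 53063 and 52690.2 and 60402, 119939 and 115200 normalized counts (log2 difference -0.99, SE 0.14, limma adjusted P = 0.000497). Agr2, Klk1 and Tpsg1 did not pass (-0.27, -0.04 and 0.09). Goblet list genes took 7.01% to 10.3% of CD24negTomato+ and 3.72% to 4.84% of CD24+Tomato+ libraries.

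**Figure D3:**
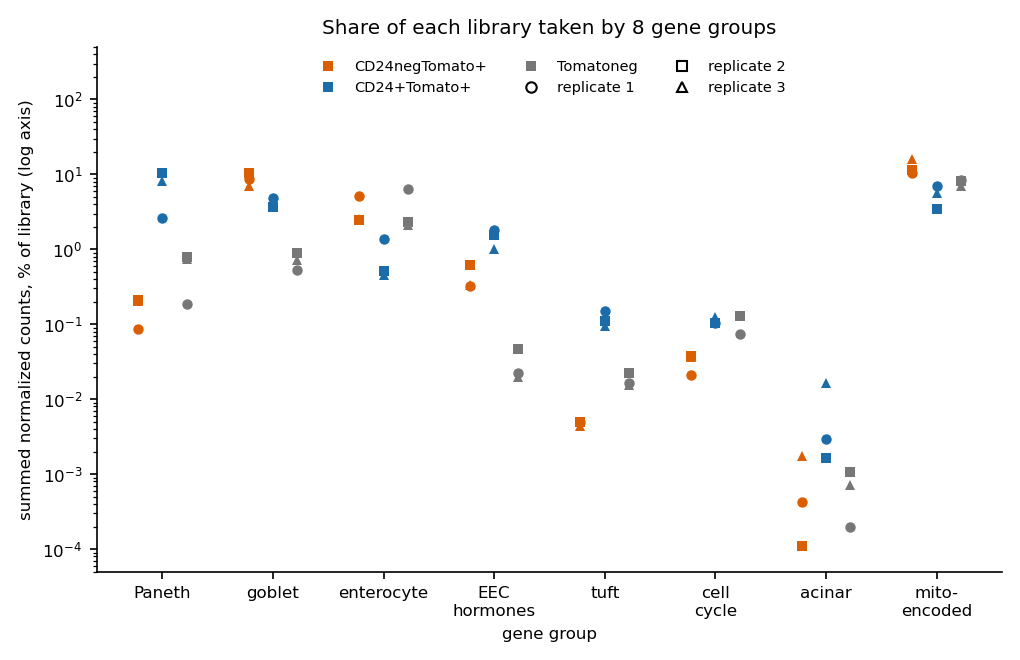
Summed normalized counts of 8 gene groups as a percent of all counts of a library (log axis), 1 point per library, in orange for CD24negTomato+, blue for CD24+Tomato+ and grey for Tomatoneg libraries, with a circle, square or triangle for replicates 1, 2 and 3. The Paneth, hormone, tuft and cell cycle groups were below the CD24+Tomato+ libraries in all CD24negTomato+ libraries, and the goblet, enterocyte and mitochondrially encoded groups above them; the acinar group was highest in replicate 3 of both Tomato+ populations.

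Crypt genes were lower in CD24negTomato+ cells. Of 19 stem cell genes, 16 were lower and 0 higher (8 and 0 without the block), beside 26.0% and 24.0% of all genes tested. Their median log2 difference was -1.45. Olfm4, an abundant product of crypt base cells, had 1085, 1519.5 and 2811 normalized counts in CD24negTomato+ and 8908, 13133 and 14987 in CD24+Tomato+ libraries (log2 difference -2.78, SE 0.16, limma adjusted P = 3.66e-06). Lgr5, the R-spondin receptor that marks cycling stem cells, had 49.4, 10.1 and 40.7 and 427, 346 and 299 normalized counts (log2 difference -3.33, SE 0.41), and Ascl2, a transcription factor of the same cells, had a log2 difference of -4.67 (SE 0.44). Hopx, used as a marker of reserve stem cells, had 1187, 1195 and 971 and 3070.4, 3191 and 2720.0 normalized counts (log2 difference -1.35, SE 0.13, limma adjusted P = 4.9e-05). Sox9, which is active in crypt cells and in some EEC and Paneth cells, had a log2 difference of -2.99 (SE 0.27). The 3 that did not pass were the Wnt feedback inhibitors Rnf43 (0.0) and Znrf3 (-0.81; -1.04 and past the threshold without replicate 3) and Bmi1 (-0.17).

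All 24 cell cycle genes were lower, where 26.0% of all genes tested were, with a median log2 difference of -1.77. Without the block 17 passed, beside 660 lower of all 13239 genes tested. Mcm5, a subunit of the replicative helicase, had 198, 254 and 510.5 normalized counts in CD24negTomato+ and 1375, 1905 and 3154 in CD24+Tomato+ libraries, without overlap (log2 difference -2.71, SE 0.13, limma adjusted P = 2.19e-06), and replicate 3 was highest on both sides. Top2a, which untangles DNA in dividing cells, had a log2 difference of -1.71 (SE 0.19), and Mki67, the proliferation antigen, had -0.99 (SE 0.26; -0.67 and not past the threshold without replicate 1). Of 14 Notch pathway genes tested among 17, 8 were lower and none higher (1 without the block), beside 26.0% and 24.0% of all genes tested. Their median log2 difference was -0.93. The glycosyltransferases Mfng and Lfng, which tune Notch for its ligands, gave -2.58 (SE 0.40) and -1.74 (SE 0.27), and the ligands Dll1 and Dll4, made by secretory cells, gave -0.88 (SE 0.16) and -1.10 (SE 0.18). The Notch target Hes1 and the secretory master factor Atoh1 did not pass (0.02 and -0.16). Atoh1 had 2789, 2714 and 1668 normalized counts in CD24negTomato+ and 2998, 2546 and 2648 in CD24+Tomato+ libraries, which overlapped.

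Enterocyte genes were higher throughout. All 23 on the list were tested and higher in CD24negTomato+ cells, where 24.0% of all genes tested were, with a median log2 difference of 2.78. Without the block 22 passed, beside 1046 higher of all 13239 genes tested. Lactase (Lct) had 62555, 11099 and 12443 normalized counts in CD24negTomato+ and 8699.6, 1164 and 1043 in CD24+Tomato+ libraries (log2 difference 3.23, SE 0.15, limma adjusted P = 1.78e-06). Sucrase-isomaltase (Sis), the other large brush border disaccharidase, had 83629, 44318 and 42009 and 17446, 4967 and 2921 normalized counts (log2 difference 3.11, SE 0.25, limma adjusted P = 2.09e-05). In each of these genes replicate 1 was the highest of both populations, and the CD24negTomato+ library was above the CD24+Tomato+ library in every pair. Apolipoprotein Apoa4, which is packed into chylomicrons, had a log2 difference of 3.25 (SE 0.21) and the glucose transporter Slc2a2 (GLUT2) 3.81 (SE 0.23). The smallest differences were in Vil1 (1.49) and Cdhr5 (0.94), which are proteins of the microvillus. Enterocyte genes took 5.2, 2.48 and 2.57% of CD24negTomato+ libraries 1, 2 and 3, 1.39, 0.517 and 0.456% of CD24+Tomato+ libraries and 6.47, 2.28 and 2.12% of Tomatoneg libraries.

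The promoter of Sis is shown as that of an enterocyte gene whose window held a match to the HNF1 motif, a factor of enterocyte genes. The 250 bases before its RefSeq start are given 5′ to 3′ on the strand of the gene (GRCm38.p6, chr3:72967864-72968113, minus strand), with ATTAAC, which is GTTAAT read on the other strand, in capitals.
Sis: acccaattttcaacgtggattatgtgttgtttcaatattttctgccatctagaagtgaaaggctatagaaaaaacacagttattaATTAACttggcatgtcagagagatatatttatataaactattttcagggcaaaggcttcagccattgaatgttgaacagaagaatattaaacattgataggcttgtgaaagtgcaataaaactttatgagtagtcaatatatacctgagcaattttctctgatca
GTTAAT, a part of the HNF1 motif, was found on either strand in 2 of 19 enterocyte genes with a window (Fabp1 and Sis) and in 6.54% of all windows.

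The genes with the largest rises were of mixed function, and bridged values did not overlap for the next 7 named. Neprilysin (Mme), a membrane peptidase, had 12973, 3952 and 3968 normalized counts in CD24negTomato+ and 1331, 190.1 and 196 in CD24+Tomato+ libraries (log2 difference 4.04, SE 0.20, limma adjusted P = 2.4e-06). The vitamin B12 receptor cubilin (Cubn), the vitamin C transporter Slc23a1 and the water and glycerol channel Aqp3 had log2 differences of 3.79 (SE 0.31), 3.60 (SE 0.27) and 3.69 (SE 0.30). Cyp1a1, a target of the aryl hydrocarbon receptor, had 393, 234 and 131 and 48.4, 14.7 and 1.94 normalized counts (log2 difference 4.20, SE 0.43). The alarmin Il33 had 749.9, 682 and 482 and 109.9, 26.1 and 24.3 normalized counts (log2 difference 3.97, SE 0.33), and the chemokine receptor Ccr4 had 32.2, 71.7 and 134 and 4.97, 6.13 and 21.3 (log2 difference 3.69, SE 0.37). For Ccr4 the same Tomatoneg libraries had 19.8, 41.1 and 111 in the table with CD24negTomato+ cells. In the table with CD24+Tomato+ cells they had 37.9, 74.8 and 207. Without the bridge its log2 difference was 2.81.

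Ido1, the tryptophan-degrading enzyme, had the largest rise, with 4462, 8735 and 6488 normalized counts in CD24negTomato+ and 669, 109 and 82.9 in CD24+Tomato+ libraries (log2 difference 5.16, SE 0.60, limma adjusted P = 0.000176). Tomatoneg libraries had 1.35, 242 and 118 normalized counts, and its bridged values overlapped, as did those of Frmd3 (log2 difference 4.30, SE 0.61), which was at 0 in Tomatoneg replicates 1 and 3. Interferon response genes were higher as a group. Of 20 tested among 21, 18 were higher and none lower (8 higher without the block), beside 24.0% and 26.0% of all genes tested. Their median log2 difference was 1.64. The guanylate-binding protein Gbp2 had 372, 764 and 1332 normalized counts in CD24negTomato+ and 96.4, 47.7 and 75.3 in CD24+Tomato+ libraries (log2 difference 3.42, SE 0.39). The antiviral RNA-binding protein Ifit1 had 2696, 1222 and 569 and 421, 140.1 and 52.3 (log2 difference 3.14, SE 0.19, limma adjusted P = 4.59e-06). The interferon-induced chemokine Cxcl11 had a log2 difference of 3.68 (SE 0.59), and the signalling factors Stat2 and Irf7 had 1.17 and 1.23. Oas1a (0.36; 0.54 and past the threshold without replicate 3) and Bst2 (0.32) did not pass.

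Insulin transcripts were higher in CD24negTomato+ cells within every pair. Ins2 (chromosome 7, 142678656 to 142743381, minus strand of GRCm38) had 269, 614 and 5471 normalized counts in CD24negTomato+, 8.64, 135 and 358 in CD24+Tomato+ and 0, 90.6 and 70.6 in Tomatoneg replicates 1, 2 and 3. Its log2 difference was 3.69 (SE 0.47, limma adjusted P = 0.000282; 4.81, 2.24 and 4.02 by pair), or 12.9-fold higher. Ins1 (chromosome 19, 52264297 to 52265476, plus strand) had 62.9, 234 and 2871 normalized counts in CD24negTomato+, 5.0, 49.2 and 218 in CD24+Tomato+ and 0, 43.3 and 24.4 in Tomatoneg replicates, a log2 difference of 3.15 (SE 0.43, limma adjusted P = 0.000391). Libraries of one population differed from each other by more than 10-fold, bridged values overlapped for both genes, and neither passed without the block. The Ins1 and Ins2 coding sequences are close, so reads shared between them are divided by estimate. The other β cell genes gave mixed results. Of 15 on the islet list, which shares 7 genes with other lists, 11 were tested. Of these, 3 were higher (Ins1, Ins2 and Slc2a2, the last also an enterocyte gene) and 6 lower, beside 24.0% and 26.0% of all genes tested. Their median log2 difference of -1.0 became 0.33 with a filter at a mean of 1 or none.

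CD24negTomato+ replicate 3 stood apart for some islet transcripts but not for all. It held the highest value of Ins1, Ins2, Ppy and Iapp among CD24negTomato+ libraries, and also of Pcsk2, the prohormone convertase of islets, with 52.2, 96.9 and 460.5 normalized counts against 122, 83.4 and 80.4 in CD24+Tomato+ libraries (log2 difference 0.55, not past the threshold, and -0.45 without replicate 3). The β cell factor Mafa, below the filter, had 0, 4.46 and 19.3 and 3.28, 3.50 and 0 normalized counts, the glucose-6-phosphatase G6pc2 had 4.21, 13.2 and 61.8 and 3.16, 3.23 and 0, and the zinc transporter Slc30a8 had 2.83, 7.42 and 15.5 and 8.20, 3.49 and 0.965. Other genes of the islet list did not follow. In CD24negTomato+ libraries Pdx1 had 534, 440 and 386 normalized counts and Ucn3 had 101, 83.6 and 74.2. Slc2a2 and Ero1b were also lowest in replicate 3, and Abcc8 and Kcnj11 were highest in replicate 2. Without replicate 3, the log2 differences were 3.52 for Ins2 and 2.84 for Ins1, and both passed. Digestive enzymes of pancreatic acinar cells were highest in replicate 3 as well, in both populations. Of 10 acinar genes, 8 were tested and 8 were lower in CD24negTomato+ cells, beside 26.0% of all genes tested, with a median log2 difference of -2.96. But bridged values overlapped for all 8, where 31.3% of all genes tested did not overlap, and none passed without the block. Chymotrypsinogen (Ctrb1) had 43.9, 6.03 and 135 normalized counts in CD24negTomato+ and 157, 105 and 1161 in CD24+Tomato+ libraries. The list took 0.000423, 0.00011 and 0.00174% of CD24negTomato+ libraries 1, 2 and 3 and 0.00293, 0.00164 and 0.0167% of CD24+Tomato+ libraries. Its part in the insulin values was not tested.

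Of 12 FoxO and insulin signalling genes, all tested, 4 were higher and 5 lower (none and 1 without the block), beside 24.0% and 26.0% of all genes tested, with a median log2 difference of -0.31. The insulin receptor (Insr) had 1749, 1087 and 738 normalized counts in CD24negTomato+ and 1156, 575 and 308 in CD24+Tomato+ libraries (log2 difference 1.0, SE 0.16), and its substrate Irs2, a FoxO target, had 928, 446 and 873 and 600.5, 261 and 315 (log2 difference 1.02, SE 0.20). Irs1 (-1.81; -1.43 and not past the threshold without replicate 1), Igf1r (-1.56) and the FoxO target Pdk4 (-1.73; -0.97 and not past the threshold without replicate 2) were lower. The kinase Akt1 had -0.54, and Akt2 had -0.44 and did not pass without replicate 2 (-0.29) or replicate 3 (-0.37). Foxo3 had a log2 difference of 0.53 (SE 0.17, limma adjusted P = 0.0312) that did not pass without replicate 1 (0.57) or replicate 3 (0.33), and Foxo4 (-0.17) and Foxo6 (-0.74) did not pass.

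**Figure D4:**
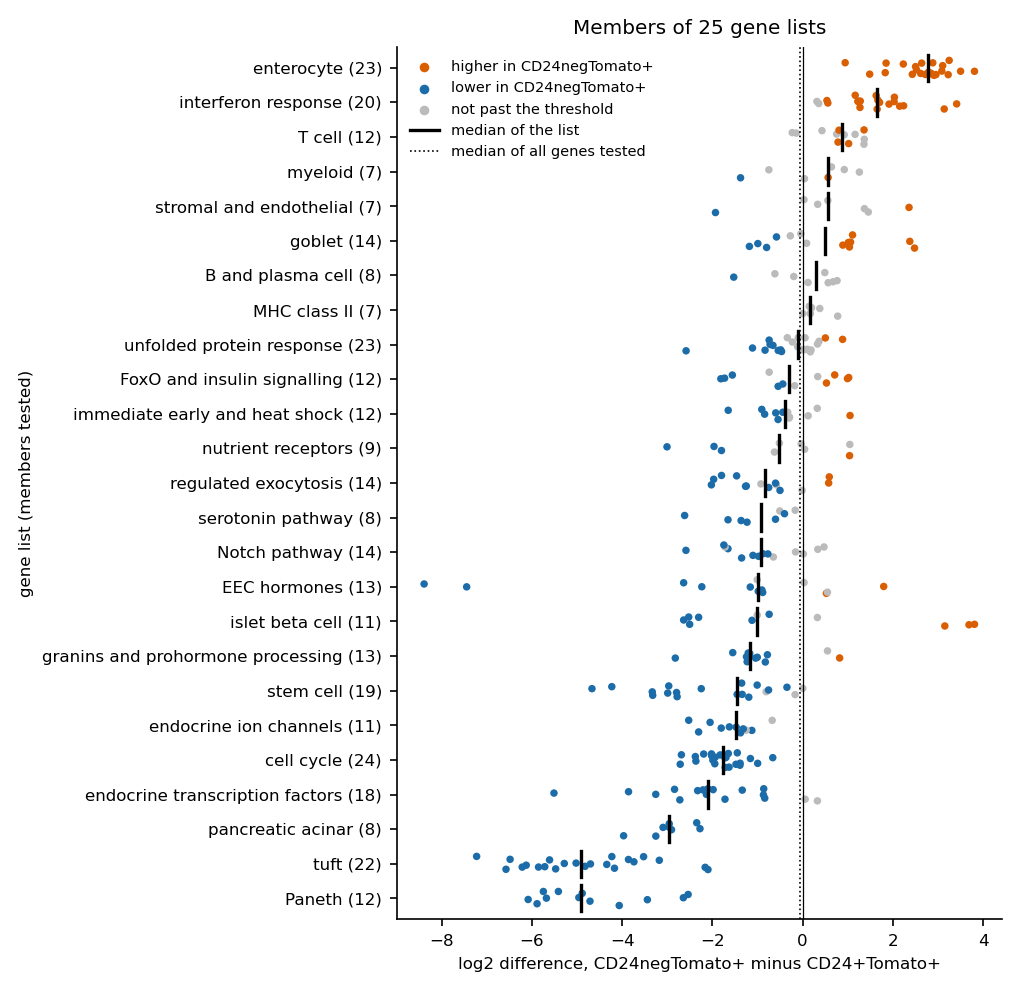
Log2 difference between CD24negTomato+ and CD24+Tomato+ cells (x axis) of each tested member of 25 gene lists (y axis, with the number tested), 1 point per gene, in orange or blue where higher or lower in CD24negTomato+ cells at an adjusted P under 0.05 from limma and in grey otherwise. Bars mark list medians and the dotted line the median of all genes tested, -0.05; the tuft and Paneth medians are both -4.92 and the enterocyte median is 2.78.

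Of 23 genes of the unfolded protein response, 2 were higher, 9 lower and 12 did not pass, where 24.0% and 26.0% of all genes tested were higher and lower, with a median log2 difference of -0.11 (none passed without the block). The lectin chaperone calnexin (Canx) had a log2 difference of 0.89 (SE 0.14), and Derl3 (-2.58), Sdf2l1 (-1.11) and Creld2 (-0.83) were lower, whereas Hspa5 (-0.0) and Xbp1 (0.06), the main chaperone and the main factor of the response, did not pass. Of 12 immediate early and heat shock genes, which can respond to cell isolation, 1 was higher and 6 lower (none without the block), where 24.0% and 26.0% of all genes tested were, with a median log2 difference of -0.38. These were Atf3 (1.05; 0.69 without replicate 1) on one side and Nr4a1 (-1.65), Ier2 (-0.90), Fosb, Egr1, Jun and Dusp1 on the other. Egr1 (-0.59) did not pass without replicate 1 (-0.38), Jun (-0.54) without replicate 1 (-0.38) or replicate 2 (-0.51), or Dusp1 (-0.44) without replicate 2 (-0.49) or replicate 3 (-0.36). Fos had 8311, 12084 and 11340.3 and 9064, 11747 and 9650.3 normalized counts and did not pass. All 13 mitochondrially encoded genes were higher, with a median of 1.61 (3 without the block), and 79 of 81 cytosolic ribosomal protein genes were lower, with a median of -0.93 (45 without the block). Over all 13239 genes tested 24.0% were higher and 26.0% lower (1046 and 660 genes without the block). The mitochondrial and ribosomal groups were taken by symbol after values were seen, and their part in the other gene groups was not tested.

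MHC class II genes, which present antigen and which epithelial cells can also express, differed more between replicates than between populations. None of 7 passed by limma over 3 pairs (1 at an unadjusted P under 0.05), and their median log2 difference of 0.17 became -0.03 with equal totals. The invariant chain (Cd74) had 5543, 2797 and 28319 normalized counts in CD24negTomato+ and 3979, 4432 and 20127 in CD24+Tomato+ libraries, with replicate 3 highest in both, and its log2 difference was 0.17 (SE 0.22) and -0.03 with equal totals. Leaving out replicate 2 gave 0.57, which passed.

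Transcripts of other cell types were scarce in both populations. Of 12 T cell genes tested among 13, 4 were higher in CD24negTomato+ cells (Gzmb, Gzma, Ccl5 and Cd8a), where 24.0% of all genes tested were, and none lower (none without the block), with a median log2 difference of 0.87. Granzyme A (Gzma) had 389, 308 and 692 normalized counts in CD24negTomato+, 202, 206 and 276 in CD24+Tomato+ and 1206, 6241 and 4272 in Tomatoneg libraries. Its log2 difference was 1.02 (SE 0.17). Ccl5 (0.81) did not pass without replicate 1 (0.53), nor Cd8a (0.79) without replicate 1, 2 or 3 (0.71, 0.97 and 0.67). T cell genes took 0.00265% to 0.00517% of CD24negTomato+, 0.00205% to 0.00299% of CD24+Tomato+ and 0.0128% to 0.0534% of Tomatoneg libraries. Of 8 B and plasma cell genes tested among 9, Cd79b was lower (-1.53), but not without replicate 1 (-1.06) or replicate 2 (-1.51), and the median of 0.31 became -0.04 with a filter at a mean of 50. Of 7 myeloid genes tested among 8 (median 0.57), Itgam was higher (0.57), but not without replicate 2 (0.59) or replicate 3 (0.44), and Lyz2 lower (-1.37), but not without replicate 1 (-1.49) or replicate 2 (-0.97). The B and plasma cell list took 0.00109% to 0.00366% of CD24negTomato+ and 0.00168% to 0.00367% of CD24+Tomato+ libraries, and the myeloid list 0.00123% to 0.0022% and 0.00138% to 0.0015%. Of 7 stromal and endothelial genes tested among 11 (median 0.56), the collagen Col3a1 was higher (2.36; 1.27 and not past the threshold without replicate 3) and vimentin (Vim) lower (-1.93, SE 0.18). The endothelial gene Cdh5 and the fibroblast gene Pdgfra were at 0 in all 6 Tomato+ libraries. Calls in the B and plasma cell, myeloid, and stromal lists stand beside 24.0% higher and 26.0% lower of all genes tested.

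Set against the shared Tomatoneg libraries, each population had values of its own. The list medians below are bridged values of the 2 comparisons, which share their control libraries and were not tested here. Enterocyte genes had a median of 0.23 in CD24negTomato+ and -2.37 in CD24+Tomato+ cells, and interferon response genes 0.92 and -0.57. Paneth genes had -1.42 and 3.56, and tuft genes -2.21 and 3.09. For cell cycle genes the medians were -1.66 and 0.09. Hormone genes were far above Tomatoneg in both, with 4.69 and 5.67, as were goblet genes with 3.0 and 2.62. Among genes that passed between the populations, 621 were below Tomatoneg in all 3 CD24negTomato+ and above it in all 3 CD24+Tomato+ libraries, and 546 the reverse.

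**Figure D5:**
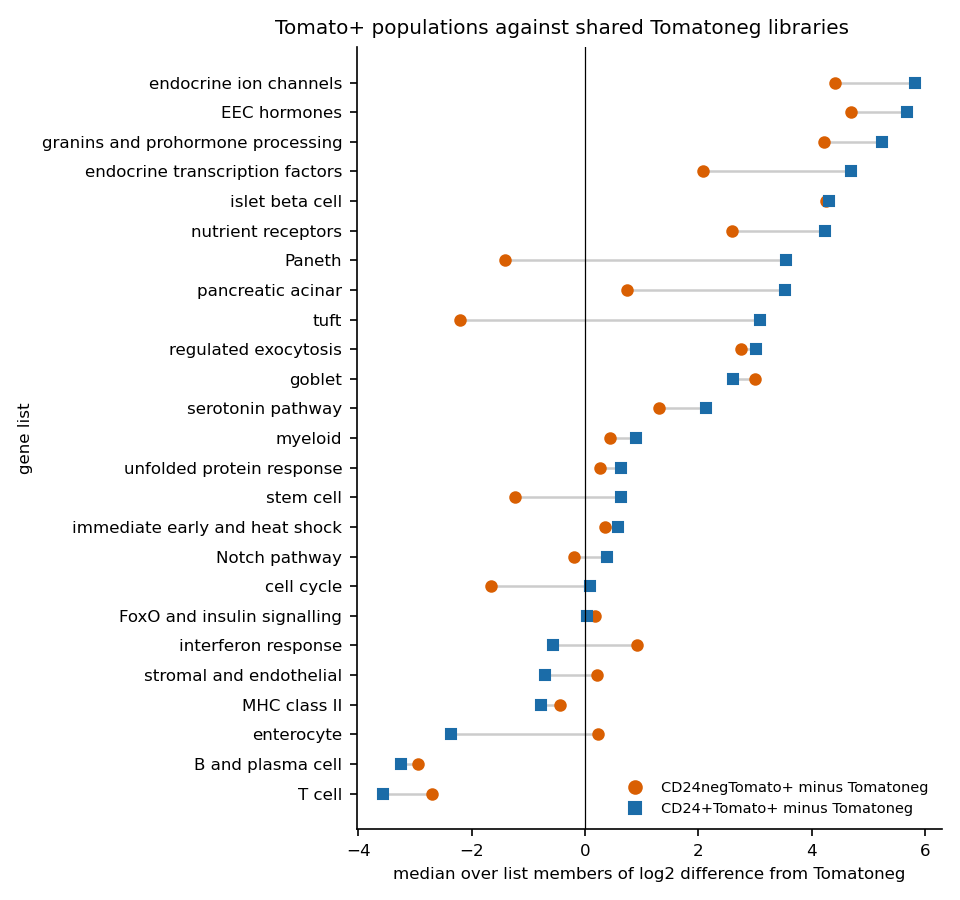
Median over the tested members of 25 gene lists (y axis) of the log2 difference from the same-numbered Tomatoneg library (x axis), with an orange circle for CD24negTomato+ and a blue square for CD24+Tomato+ cells. Paneth and tuft genes lie on opposite sides of 0 in the populations, and hormone and goblet genes lie above 0 in both.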

How the data were processed

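RNA was sequenced by the study from sorted small intestinal epithelial cells after poly-A selection. The authors deposited gene-level normalized counts in 2 tables of 6 libraries, each holding 1 Tomato+ population and the Tomatoneg libraries. These values are a signal scaled by DESeq2 normalization factors in the deposited tables, from estimated counts of kallisto 0.44.0 per the submitters' processing notes, and they are not raw counts. Whole reads could not be recovered, since 37.8% to 60.1% of low values per library were whole multiples of 1 read within 0.02 reads, and no count test was run. Depth per library was estimated from the value of 1 read.

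Groups and replicate numbers came from the sample labels. Genes with a mean of at least 10 in both tables were kept, 1 was added, and bridged values were fitted with limma 3.58.1 in R 4.3.3 with a term for the replicate number, the variance trended on mean log2 expression, and Benjamini-Hochberg adjustment over 13239 genes. The code was tested on simulated data. Before bridging, same-numbered Tomato+ libraries deviated together from their population means (r = 0.506, 0.390 and 0.443 over genes, against -0.083 to -0.390 for other numbers). No Tomatoneg value enters these r. Bridged values of one number also share a Tomatoneg library. Whether same-numbered libraries share mice is not stated in the sources used here. Libraries of one population had r of 0.927 to 0.961 over genes.

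Named genes were Cd24a, Epcam, Neurog3 and Foxo1, the 12 largest differences in each direction among genes that passed with the same sign in all pairs, a mean of at least 50 in the higher population and a name that is no gene model, up to 5 members of each of 25 gene lists by size of difference, and genes the study names. Other list members were named after their values were seen. The populations, the lists and the rule were chosen with earlier results of these data known. Promoters came from RefSeq tables of GRCm38.p6, with 1 window per gene at its most upstream start, and gene positions from GENCODE M21 on GRCm38, where 138 of 140 named genes were placed. Alternatives were the fit without the block, pseudocounts of 0.1 and 10, filters at 1, 50 or none, no bridge, other scalings, leaving out each replicate, and a fold threshold.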

Additional observations from a re-analysis of the deposited data

Results flagged for a closer look

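Among Cd24a, Epcam, Neurog3, Foxo1, the 12 largest differences in each direction and the genes the study names, there were 17 for which the populations lay on opposite sides of Tomatoneg cells in all 3 replicates and differed from each other by limma with the replicate block (adjusted P under 0.05). The values below are the log2 difference between the populations, then the mean bridged value of CD24negTomato+ and of CD24+Tomato+ cells, which share their Tomatoneg libraries.

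Of these genes, 11 lay below Tomatoneg in CD24negTomato+ cells and above it in CD24+Tomato+ cells. Among hormones and their regulator, Sst had -8.39, with -2.34 in CD24negTomato+ and 6.05 in CD24+Tomato+ cells. Gip had -7.44, with -1.75 and 5.69. Neurog3 had -5.51, with -2.26 and 3.25. The Paneth genes gave Lyz1 -5.68, with -2.10 and 3.58, and Defa28 -7.17, with -2.57 and 4.60. The tuft genes gave Pou2f3 -6.48, with -3.94 and 2.54, and Sh2d6 -6.57, with -3.24 and 3.33. The other 3 genes on no list followed the same order: Ly6g6f had -6.83, with -4.25 and 2.58, Ccnj had -6.56, with -4.17 and 2.39, and Nrgn had -6.40, with -3.85 and 2.55. Cd24a itself, fixed by the sort, had -4.15, with -1.37 and 2.78.

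The other 6 lay above Tomatoneg in CD24negTomato+ cells and below it in CD24+Tomato+ cells. The peptidase Mme had 4.04, with 1.30 and -2.74, and the alarmin Il33 had 3.97, with 0.79 and -3.17. The transporters and channels gave Slc2a2 3.81, with 0.72 and -3.09, and Aqp3 3.69, with 0.55 and -3.14. The receptors gave Cubn 3.79, with 0.56 and -3.23, and Ccr4 3.69, with 0.58 and -3.11. Tomatoneg values of Ccr4 differed between the 2 tables, and its log2 difference was 2.81 without the bridge.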

How the results depend on the processing

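The block, which pairs same-numbered libraries, had the largest effect: without it 1046 genes were higher and 660 lower, and 58 of the 134 named genes called with it passed. With equal library totals 1889 genes were higher, and a log2 difference of at least 1 left 1477 higher and 1954 lower. Leaving out a replicate gave 2539 to 2961 higher and 2694 to 2951 lower genes. A variance trend on the mean difference, chosen after seeing the data, gave 2637 and 3124. The medians of 21 of 25 lists kept their sign under all 14 alternatives, the exceptions being MHC class II, B and plasma cell, islet and nutrient receptor genes. Among the 140 genes named by the rule, values that changed sign were those of genes that had not passed: Cd74 (-0.033 with equal totals, and -0.034 to 0.57 with a replicate left out), H2-Ab1 (-0.035 with equal totals, -0.061 after quantile normalization and -0.095 to 0.43 with a replicate left out), Igkc (0.088 after quantile normalization), Igha (-0.084 with equal totals and -0.012 to 0.20 with a replicate left out) and Pcsk2 (-0.45 to 1.40 with a replicate left out). Of the other list members named, Nts, Etv1, Hes1, Atoh1, Fos, Bmi1, Klk1, Tpsg1, Rnf43, Xbp1 and Hspa5, which had not passed, also changed sign under at least 1 alternative. With equal totals, Foxo1 (0.51) and Epcam (0.28) did not pass. Their causes were not tested. The planned edgeR test on whole reads was not run because whole reads could not be recovered. Depth limits genes such as Gng13, whose CD24negTomato+ values lie under 3 reads.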

Other observations

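Gene families taken by symbol, after values were seen, gave values beyond the lists. Of 33 cytochrome P450 (Cyp) genes tested, enzymes that oxidise drugs, steroids and fatty acids, 24 were higher in CD24negTomato+ cells and 1 lower by limma with the block, with a median log2 difference of 1.70 beside -0.05 over all genes tested. Of 264 solute carrier (Slc) genes, which move nutrients and ions across membranes, 126 were higher and 60 lower, with a median of 0.52. Over all genes tested 24.0% were higher and 26.0% lower, so the lower Slc count was near the share of all genes. Without the block, 17 Cyp genes and 78 Slc genes were higher, beside 1046 of all 13239 genes tested.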
